A study of Mus musculus with 30 samples.

Results

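The 10 genes described here encode the enzymes that break down stored triglyceride, their cofactors, and the receptors and phosphodiesterase that restrain this process in adipocytes: Pnpla2, Lipe, Mgll, Abhd5, G0s2, Plin1, Pde3b, Hcar1, Hcar2 and Adora1. They were chosen by gene name, with earlier results of these data known, and all 10 are among the 41549 genes of the table. RNA was measured in inguinal white fat (iWAT), interscapular brown fat (iBAT) and the liver of 10 male mice on a C57Bl/6J background, 5 wild-type (WT) and 5 LFABP-/-, which gave 30 libraries, 5 for each genotype and tissue. LFABP-/- mice are null for Fabp1, the gene of the liver fatty acid-binding protein, and the labels name neither Cre nor a transgene. Both genotypes began a 45 kcal% fat diet rich in saturated fat at 2 months of age, ate it for 12 weeks, shared cages with other mice, were food deprived for 4 h and were anesthetised before the tissues were taken. Each library is 1 tissue of 1 mouse. Low-fat-fed mice are not analysed here.

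Lipolysis releases fatty acids from the triglyceride of the lipid droplet in sequence. Adipose triglyceride lipase (ATGL, Pnpla2) removes the first fatty acid, hormone-sensitive lipase (HSL, Lipe) acts on the diglyceride and monoglyceride lipase (Mgll) on the monoglyceride. CGI-58 (Abhd5) activates ATGL, G0S2 inhibits it, and perilipin 1 (Plin1) coats the adipocyte droplet and holds CGI-58 until protein kinase A phosphorylates it. Catecholamines raise cAMP and so activate protein kinase A. The lactate receptor HCAR1, the hydroxybutyrate and niacin receptor HCAR2 and the adenosine A1 receptor (Adora1) couple to Gi and lower cAMP, and PDE3B degrades cAMP downstream of insulin. Mature adipocytes carry all of these proteins, HCAR2 is also found on macrophages and neutrophils, and ATGL and G0S2 also act in hepatocytes.

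Hcar1 and Hcar2 lie next to each other on the minus strand of chromosome 5 (GRCm38): Hcar2 at chr5:123863570-123865499 and Hcar1 at chr5:123876736-123880020, 11236 bp apart. Each is annotated with 1 transcript of 1 exon. No stretch of 100 bases of either transcript, the length of a read, was found in another gene. The same held for Pde3b (chr7:114415281-114539251), Pnpla2 (chr7:141455198-141460743), G0s2 (chr1:193272161-193273217), Plin1 (chr7:79720218-79732903) and Mgll (chr6:88724412-88828360). Such shared stretches made up 14.6% of those of Adora1 (chr1:134199223-134235431), 13.6% of those of Abhd5 (chr9:122351608-122381524) and 7.14% of those of Lipe (chr7:25379527-25398710). Exons of Adora1 overlap Mybph on the opposite strand, those of Abhd5 overlap A730085K08Rik, those of Lipe overlap 4732471J01Rik and those of Mgll overlap Gm26588. The library kit did not mark strand, so reads that lie within the overlaps of Adora1, Abhd5 and Lipe cannot be told apart. For Mgll, no stretch of the length of a read was shared.

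Promoter sequence was at hand for 8 of the 10 genes (RefSeq, GRCm38.p6), as 300 bases from 250 before to 50 after each start, 11 promoters in all. The promoters of Hcar1, whose level was lower in both fat depots of LFABP-/- mice, of Pnpla2, which encodes the enzyme that starts lipolysis, and of Abhd5, which encodes the activator of that enzyme, are shown 5′ to 3′ on the strand of the gene. They lie at chr5:123879954-123880253 on the minus strand, chr7:141454938-141455237 on the plus strand and chr9:122351366-122351665 on the plus strand. Capitals mark a match to AGGTCA or its reverse complement TGACCT, the motif that many nuclear receptors bind in pairs.
Hcar1: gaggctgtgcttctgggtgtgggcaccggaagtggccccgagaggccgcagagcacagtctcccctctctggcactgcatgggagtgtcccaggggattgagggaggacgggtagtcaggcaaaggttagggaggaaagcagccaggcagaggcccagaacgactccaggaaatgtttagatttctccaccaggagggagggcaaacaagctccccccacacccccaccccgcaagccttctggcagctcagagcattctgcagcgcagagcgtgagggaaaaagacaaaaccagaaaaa
Pnpla2: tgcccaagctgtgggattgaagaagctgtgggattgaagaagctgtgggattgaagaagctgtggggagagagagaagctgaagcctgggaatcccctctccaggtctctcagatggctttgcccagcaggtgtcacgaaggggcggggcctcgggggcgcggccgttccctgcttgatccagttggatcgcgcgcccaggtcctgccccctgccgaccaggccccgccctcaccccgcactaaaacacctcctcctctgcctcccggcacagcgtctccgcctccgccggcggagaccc
Abhd5: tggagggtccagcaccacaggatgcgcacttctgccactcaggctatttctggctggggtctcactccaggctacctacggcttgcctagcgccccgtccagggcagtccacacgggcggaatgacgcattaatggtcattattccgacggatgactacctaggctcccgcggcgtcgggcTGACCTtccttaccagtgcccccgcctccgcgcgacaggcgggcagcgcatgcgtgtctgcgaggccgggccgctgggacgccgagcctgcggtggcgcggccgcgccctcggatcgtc
The Abhd5 promoter held the motif once, with its first base at position -69 from the start site, and the other 10 promoters did not hold it. Among 32851 mouse promoters of the same length, 16.3% held it. TGACGTCA, the full cAMP response element, was in 1.79% of all promoters, TTGCGCAA in 0.183%, CCAAT in 37.4% and TATAAA in 13.6%, each searched on both strands, and none of the 11 promoters held any of these 4. A match is a run of letters, and its absence from these 300 bases says nothing about factors that act elsewhere.

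The values of the table are on the TPM scale and sum to the same total in each library, apart from rounding. The number of reads behind them is unknown. Fabp1 was at 9165.5 to 12697.6 in WT liver and at 0.2 to 51.8 in LFABP-/- liver. In iBAT it was at 0.2 to 8.7 in WT and at 0.4 to 21.2 in LFABP-/- libraries. The iBAT means were 3.16 and 10.34, so Fabp1 was not lower in LFABP-/- iBAT, and the source of these reads was not tested. In iWAT it was at 1.9 to 23.9 in WT libraries and at 0.2 to 0.9 in 4 LFABP-/- libraries, but at 196.1 in the library labelled LFABP-/- replicate 1, which also had the highest hepatocyte markers of iWAT (mean log2 value 7.30, against 2.09 to 5.39 in the others). Of the iWAT libraries, 5 were high in lymphocyte markers (5.42 for WT replicate 3, 7.28 for WT replicate 4, then 5.97, 6.81 and 6.70 for LFABP-/- replicates 2, 3 and 4), and the other 5 were at 1.00 to 1.64. Skeletal muscle markers reached 8.14 in iWAT of LFABP-/- replicate 4. In iBAT they were at 6.47 to 10.78 in WT and at 3.88 to 9.84 in LFABP-/- libraries. In iBAT, adipocyte markers were at 7.55 to 7.82 in WT and 6.75 to 7.25 in LFABP-/- libraries, with 6 of 12 called lower and 1 higher. Hepatocyte markers were at 0.62 to 3.04 and 3.60 to 6.84, with 11 of 12 called higher. Of all genes tested in iBAT, 47.8% were called, 25.5% lower. The mean of brown adipocyte markers was at 7.31 to 7.79 in WT and 7.81 to 8.25 in LFABP-/- iBAT. Of these 9 markers, 3 were called higher and 2 lower, and their median log2 fold change was -0.01. The list therefore did not rise as a whole. In bulk tissue, fewer cells of a type and less RNA per cell cannot be told apart.

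Expression of the lipases and droplet proteins was high in fat and followed one order in iWAT of both genotypes. In WT iWAT, Pnpla2 averaged 3392 ± 1049, Plin1 1477 ± 274, Lipe 1153 ± 249, Mgll 901 ± 235 and G0s2 542 ± 173 (mean ± SD on the TPM scale, n = 5), and their percentiles among the genes expressed there ran from 99.2 (G0s2) to 99.9 (Pnpla2). In these TPM-scale levels, the ranges of Plin1, Lipe and Mgll overlapped, and those of Mgll and G0s2 as well. The cofactor Abhd5 (79.0 ± 21.1) and the receptors Adora1 (63.4 ± 15.9) and Hcar2 (53.7 ± 19.9) were at the low end, with Pde3b (207 ± 54.0) and Hcar1 (139 ± 66.5) between. In WT iBAT, Pnpla2 again led at 1775 ± 179, followed by G0s2 at 611 ± 90.8, Plin1 at 524 ± 76.9, Lipe at 458 ± 71.1 and Mgll at 319 ± 32.9. The order differed in WT liver, where G0s2 (237 ± 107), Mgll (126 ± 8.17) and Pnpla2 (115 ± 22.7) led. Pde3b (20.8 ± 2.57), Adora1 (14.8 ± 3.48), Lipe (13.3 ± 3.16) and Abhd5 (10.9 ± 1.36) were lower in liver, Plin1 (1.78 ± 0.826) and Hcar2 (1.56 ± 1.36) were near the filter used for tests, and Hcar1 was at 0 to 0.3 in all 10 liver libraries.

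**Figure D1:**
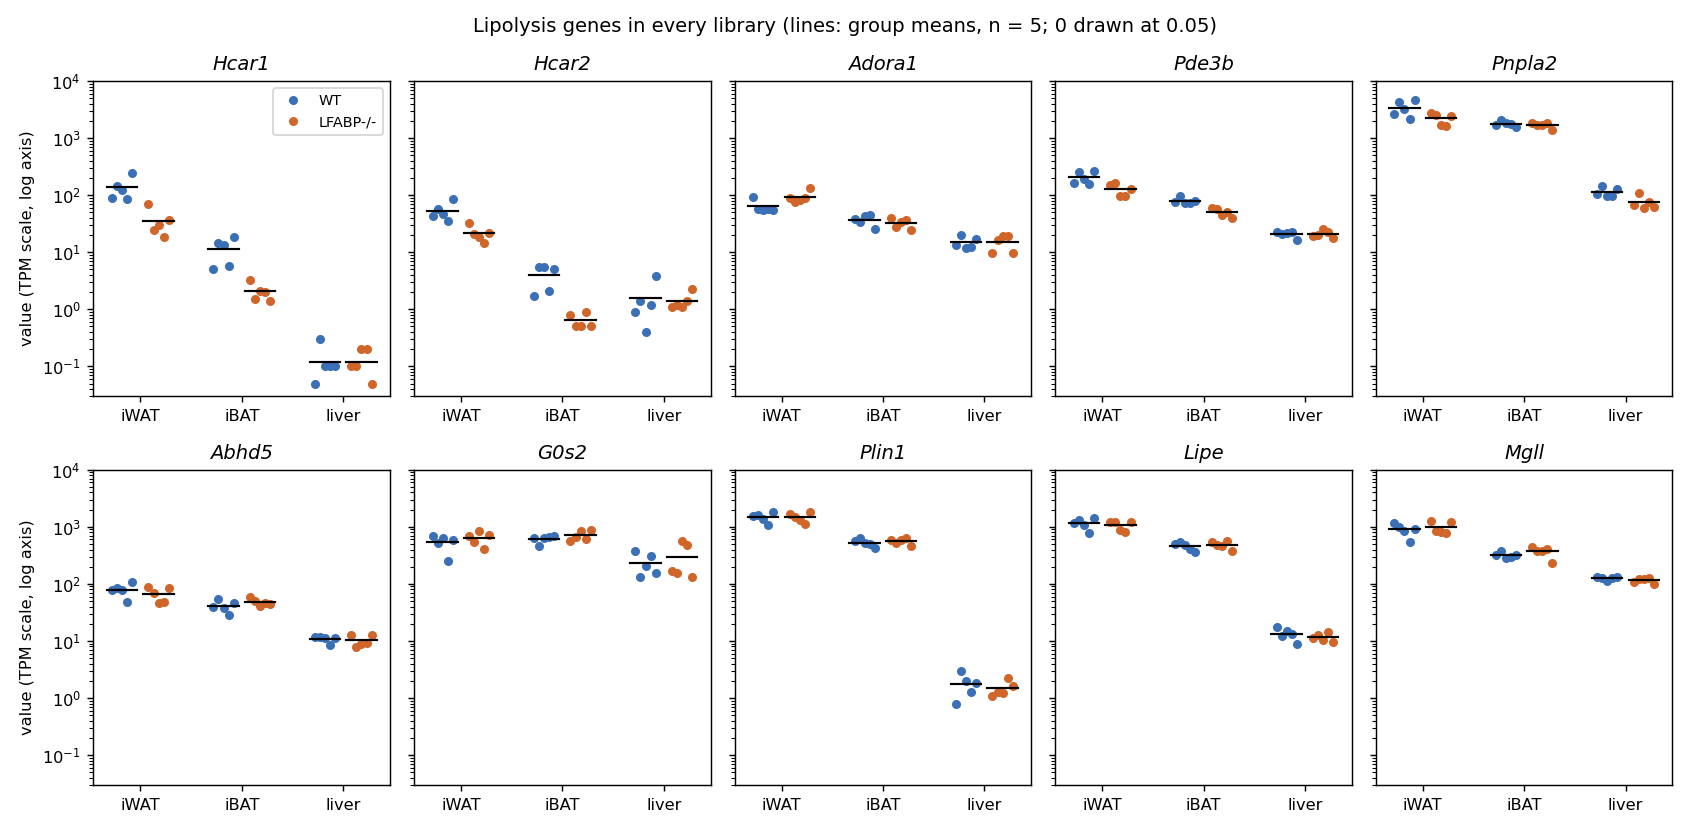
Value on the TPM scale (log axis) of each of the 10 genes in all 30 libraries, by tissue and genotype. Points are libraries, lines are means of 5, and a value of 0 is drawn at 0.05. Hcar1 and Hcar2 of LFABP-/- libraries sit below every WT library in iWAT and iBAT, while Plin1, Lipe and Mgll overlap between genotypes in each tissue.

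All 10 genes were called higher in iWAT than in liver in both genotypes (limma, adjusted p under 0.1), where 77.1% of all genes were called higher in WT and 79.7% in LFABP-/- mice, and the median gene was higher by 1.17 and 1.33 on the log2 scale. The differences on the log2(value + 0.5) scale ran from 1.23 (G0s2) to 9.40 (Plin1) in WT. That of G0s2 was -0.036 in WT and -0.12 in LFABP-/- mice once libraries were scaled by the median ratio. Between iBAT and liver, all 10 were called higher in iBAT of WT mice, against 32.8% of all genes, and 9 were called higher in LFABP-/- mice, against 34.5%. The exception was Hcar2, called lower in iBAT than in liver of LFABP-/- mice, as were 35.7% of all genes, with a log2 difference of -0.73 (adjusted p = 0.0565, limma) and values of 0.5 to 0.9 against 1.1 to 2.3. That call was lost without mitochondrially encoded genes (log2 difference -0.17) and with a pseudocount of 1 (-0.55). Hcar1 was at 0 to 0.3 in liver and entered this fit only through its values in fat. It could not be called lower in fat than in liver, so its calls against liver are not a test. The counts set against the shares of all genes are to be read without Hcar1.

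Between the fat depots, 9 of the 10 genes were called higher in iWAT than in iBAT in each genotype, but so were 83.1% of all genes in both, and the median gene was higher by 1.30 in WT and 1.38 in LFABP-/- mice. Mitochondrially encoded genes held 53.3% to 60.1% of the value in iBAT and 13.3% to 20.6% in iWAT. Hcar1 was higher in iWAT by 3.60 ± 0.34 (log2 difference ± SE) in WT and 3.72 ± 0.34 in LFABP-/- mice, and Hcar2 by 3.65 ± 0.34 and 4.24 ± 0.34. Both remained called under all 9 alternatives, with the smallest difference at 2.21. The differences of the other 7 called genes ran from 0.76 to 1.48 in WT and from 0.37 to 1.51 in LFABP-/- mice. With median-ratio scaling, Adora1, Pde3b, Pnpla2, Abhd5 and Lipe turned negative in WT, and these and Plin1 and Mgll in LFABP-/- mice, with Pnpla2 at -1.15 and Abhd5 at -1.08. Pnpla2 and Abhd5 in both genotypes, and Adora1 in WT, also turned negative without mitochondrially encoded genes. G0s2 was not called on the deposited scale (-0.24 in WT and -0.17 in LFABP-/- mice), but it was called lower in iWAT with median-ratio scaling (-1.65 and -1.69, adjusted p = 0.000438 and 0.000285, limma) and without mitochondrially encoded genes (-1.22 and -1.11). Median-ratio scaling moved the median gene to 0.084 in WT and 0.034 in LFABP-/- mice, and leaving out mitochondrially encoded genes to 0.50 and 0.62. With median-ratio scaling, the called members were 2 higher and 4 lower in iWAT of WT mice and 2 higher and 3 lower of LFABP-/- mice, and without mitochondrially encoded genes 5 higher and 1 lower, and 6 higher and 3 lower. Of all genes, 10858 in WT and 11593 in LFABP-/- mice were called in either direction with median-ratio scaling. Without mitochondrially encoded genes 12790 and 13507 were, against 14393 and 14549 on the deposited scale.

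Of the Gi-coupled receptors, Hcar1 and Hcar2 were lower in the fat of LFABP-/- mice, in both depots. In iWAT, Hcar1 averaged 139 in WT and 35.9 in LFABP-/- mice, and Hcar2 53.7 and 21.6. In iBAT, Hcar1 averaged 11.4 and 2.06, and Hcar2 4.00 and 0.640. In liver Hcar2 was not called and Hcar1 was below the filter.

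In iWAT, Hcar1 was at 87.9, 146.7, 124.0, 85.7 and 248.4 in WT replicates 1 to 5 and at 69.8, 24.2, 29.7, 18.3 and 37.4 in LFABP-/- replicates 1 to 5. Every LFABP-/- library was below every WT library, and the closest was the library labelled LFABP-/- replicate 1, with the high Fabp1. The mean fell by 74.1%, a log2 fold change of -1.97 ± 0.38 (SE; 95% interval -2.82 to -1.12; adjusted p = 0.0586, limma; exact permutation p = 0.00794, the smallest this design allows). Hcar2 was at 42.5, 57.7, 46.6, 35.4 and 86.3 in WT and at 32.5, 20.6, 18.8, 14.7 and 21.3 in LFABP-/- libraries. Again no libraries overlapped between genotypes, and WT replicate 4 and the library labelled LFABP-/- replicate 1 came closest to each other. The mean fell by 59.8%, a log2 fold change of -1.27 ± 0.26 (95% interval -1.85 to -0.70; adjusted p = 0.0667, limma; exact permutation p = 0.00794). These were the called members in iWAT, 2 of 10, both lower, where 1.45% of 14668 genes were called, 0.77% lower, and 1.66% had LFABP-/- libraries all below the WT libraries. As members were chosen with earlier results known, such shares, here and in the other comparisons, do not test the set. Hcar1 and Hcar2 correlated at r = 0.954 within genotypes in iWAT, so the 2 calls are not separate results. This was not particular to neighbouring genes. Abhd5 and Lipe, on different chromosomes, correlated at 0.954 as well, though not all members did, such as Hcar1 and Adora1 (-0.076).

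Both iWAT calls were close to the threshold. Without WT replicate 2, 3 or 5 or LFABP-/- replicate 2, 3, 4 or 5, each left out alone, the adjusted p of Hcar1 was between 0.104 and 0.158 and that of Hcar2 between 0.128 and 0.189, so neither was called. The log2 fold change of Hcar1 stayed between -2.25 and -1.73 in all 10 such fits and that of Hcar2 between -1.43 and -1.09. Without the library labelled LFABP-/- replicate 1, the adjusted p was 0.0321 and 0.0615. In the 5 libraries low in lymphocyte markers, Hcar1 was at 87.9 to 248.4 in 3 WT and 37.4 to 69.8 in 2 LFABP-/- libraries, and Hcar2 at 42.5 to 86.3 and 21.3 to 32.5. There the log2 fold changes were -1.52 and -1.16 (adjusted p = 0.351 and 0.329, limma). Macrophage and neutrophil markers were at 3.79 to 5.59 in WT and 3.55 to 4.62 in LFABP-/- iWAT (2 of 11 tested were called lower), and their part in the Hcar2 result was not tested beyond a covariate, with which the log2 fold change of Hcar2 was -1.44.

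In iBAT, Hcar1 was at 5.1, 14.3, 13.5, 5.7 and 18.2 in WT and at 3.3, 1.5, 2.1, 2.0 and 1.4 in LFABP-/- libraries. No libraries overlapped between genotypes, and WT replicates 1 and 4 had the lowest WT values in this depot, as they did in iWAT. The mean fell by 81.9%, a log2 fold change of -2.10 ± 0.35 (95% interval -2.88 to -1.31; adjusted p = 0.00148, limma; exact permutation p = 0.00794). Hcar2 was at 1.7, 5.6, 5.6, 2.1 and 5.0 in WT and at 0.8, 0.5, 0.5, 0.9 and 0.5 in LFABP-/- libraries. These values are low, and those of LFABP-/- mice lie within 0.4 of each other on a table rounded to 1 decimal. All LFABP-/- values were below the filter of 1, so Hcar2 passed it in iBAT only through its WT values. Without a filter its adjusted p was 0.00202 (limma). The mean fell by 84%, a log2 fold change of -1.87 ± 0.31 on the log2(value + 0.5) scale (95% interval -2.55 to -1.18; adjusted p = 0.00133, limma; exact permutation p = 0.00794).

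**Figure D2:**
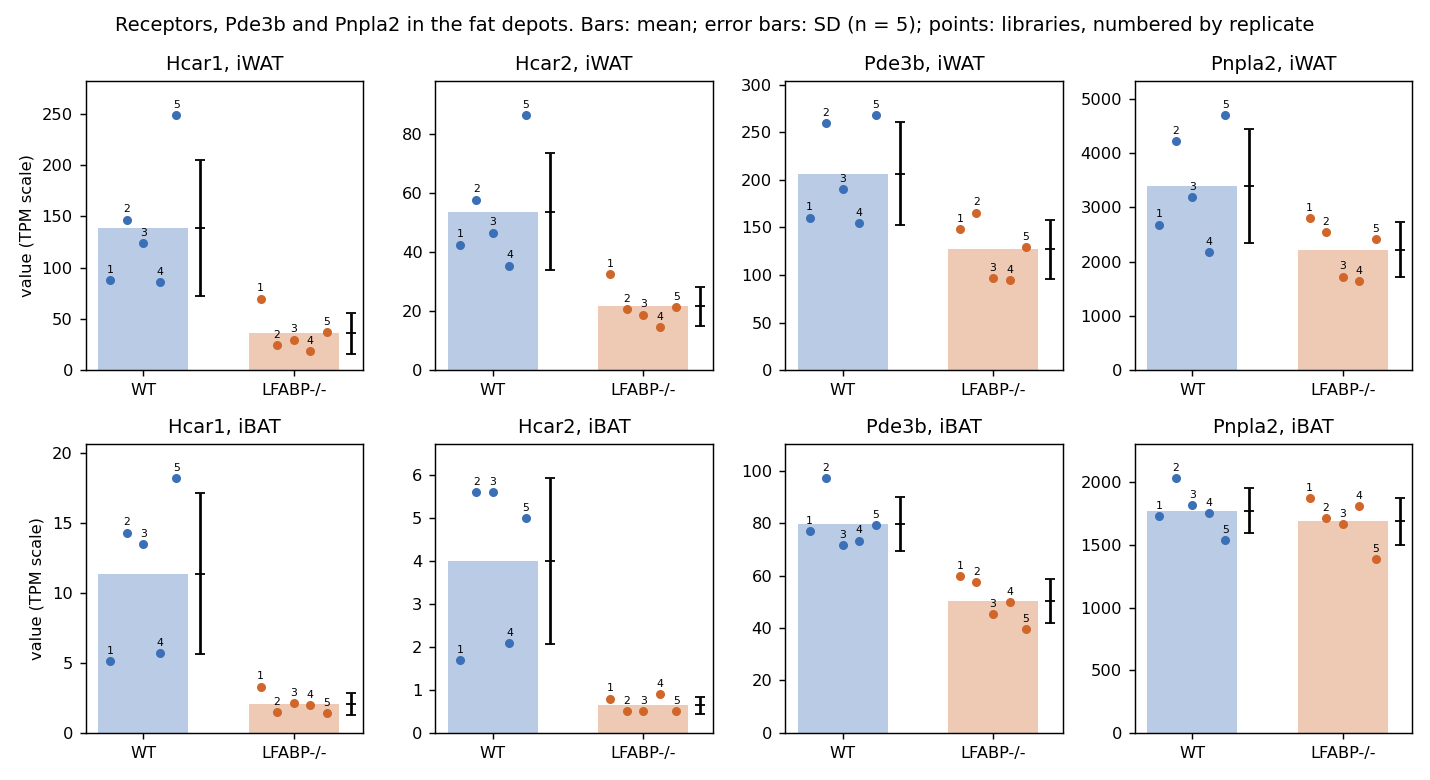
Values on the TPM scale of Hcar1, Hcar2, Pde3b and Pnpla2 in iWAT (upper row) and iBAT (lower row). Bars are means, error bars SD of 5 libraries, and points are libraries labelled with their replicate number. Hcar1 and Hcar2 do not overlap between genotypes in either depot and Pde3b does not in iBAT, whereas Pnpla2 overlaps in both.

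Adora1, the adenosine receptor that acts through the same G protein, did not pass the test in any tissue. In iWAT it was at 91.7, 58.0, 55.7, 56.7 and 54.8 in WT and at 90.7, 74.6, 83.8, 87.5 and 131.8 in LFABP-/- libraries. All LFABP-/- libraries were above 4 of the 5 WT libraries, and WT replicate 1 lay among them. The log2 fold change was 0.56 ± 0.18 (95% interval 0.16 to 0.97; adjusted p = 0.258, limma; exact permutation p = 0.0397), and the adjusted p without WT replicate 1 was 0.0778. Mybph, whose exons overlap Adora1, is a muscle gene, and skeletal muscle markers in iWAT ran from 0.53 to 8.14. With these markers as a covariate, the log2 fold change of Adora1 was 0.59 (adjusted p = 0.398, limma). Muscle markers were at 2.15 in LFABP-/- replicate 5, where Adora1 was at 131.8. They were at 8.14 in LFABP-/- replicate 4, where Adora1 was at 87.5. The part of Mybph reads in these values was not tested. In iBAT, Adora1 averaged 37.2 in WT and 32.6 in LFABP-/- mice, and in liver 14.8 and 15.0.

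Pde3b, the phosphodiesterase through which insulin lowers cAMP, was lower in iBAT of LFABP-/- mice. It was at 77.0, 97.3, 71.7, 73.4 and 79.2 in WT and at 59.7, 57.5, 45.4, 49.9 and 39.5 in LFABP-/- iBAT. The genotypes did not overlap, and the spread within each was narrow, with a coefficient of variation of 12.9% and 16.6%. The mean fell by 36.8%, a log2 fold change of -0.66 ± 0.12 (95% interval -0.94 to -0.39; adjusted p = 0.0025, limma; exact permutation p = 0.00794). With Hcar1 and Hcar2, the latter past the filter only through its WT values, 3 of 10 members were called in iBAT, all lower. This is a depot in which 47.8% of 11614 genes were called, 25.5% lower, and 14.3% had every LFABP-/- library below every WT library. The 3 calls held with each library left out. With the mean of adipocyte markers as a covariate, none of the 3 was called, at log2 fold changes of -1.81, -1.33 and -0.997 for Hcar1, Hcar2 and Pde3b, and 20 of all genes were. With hepatocyte markers as a covariate, chosen after seeing the data, Pde3b remained called at -0.86 and the receptors were not, at -2.06 and -1.31. Neither marker list overlapped between genotypes in iBAT, so genotype and these markers cannot be told apart.

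In iWAT, Pde3b was at 160.3, 259.6, 190.0, 155.0 and 268.0 in WT and at 148.6, 165.6, 96.8, 95 and 129.4 in LFABP-/- libraries. Only LFABP-/- replicate 2 reached into the WT range. The log2 fold change was -0.70 ± 0.21 (95% interval -1.17 to -0.22), close to that in iBAT, and it did not pass the test (adjusted p = 0.224, limma; exact permutation p = 0.0238). In liver it averaged 20.8 in WT and 20.9 in LFABP-/- mice, with a log2 fold change of 0.00 (95% interval -0.25 to 0.26).

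Among the lipases, Pnpla2 was called lower in liver of LFABP-/- mice. There it was at 105.9, 147.1, 96.9, 95.5 and 130.7 in WT and at 66.6, 110.8, 59, 76.0 and 62.8 in LFABP-/- libraries. The library LFABP-/- replicate 2 lay within the WT range and the other 4 were below it. The mean fell by 34.9%, a log2 fold change of -0.63 ± 0.18 (95% interval -1.03 to -0.24; adjusted p = 0.052, limma; exact permutation p = 0.0317). It was the 1 called member among the 9 tested in liver, where 16.9% of 11629 genes were called, 13.9% lower, and the median gene was lower by 0.10 on the log2 scale. The call was lost without WT replicate 2 (adjusted p = 0.136), LFABP-/- replicate 5 (0.119) or LFABP-/- replicate 1 (0.103), the LFABP-/- liver library with the most Fabp1.

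In iWAT, Pnpla2 was at 2680.6, 4214.3, 3193.3, 2175.5 and 4696.4 in WT and at 2799.3, 2544.4, 1725.5, 1638.6 and 2407.6 in LFABP-/- libraries. The ranges overlapped over 3 LFABP-/- libraries, and the 2 highest WT libraries, replicates 5 and 2, were also the 2 highest for Hcar1, Hcar2 and Pde3b. The log2 fold change was -0.59 ± 0.25 (95% interval -1.13 to -0.04), which did not pass the test (adjusted p = 0.435, limma; exact permutation p = 0.0714). In iBAT the means were 1775 and 1689, with a 95% interval of the log2 fold change from -0.28 to 0.14.

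Lipe, which encodes HSL, did not pass the test in any tissue. Its log2 fold change was -0.11 in iWAT (95% interval -0.54 to 0.32), 0.08 in iBAT (-0.22 to 0.37) and -0.17 in liver (-0.53 to 0.19). Mgll, which completes lipolysis, behaved likewise at 0.14 in iWAT (-0.37 to 0.64), 0.19 in iBAT (-0.16 to 0.53) and -0.13 in liver (-0.32 to 0.06).

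The cofactors of ATGL and the droplet coat did not pass the test either. Abhd5 averaged 79.0 in WT and 67.1 in LFABP-/- iWAT, then 41.0 and 48.5 in iBAT, with liver at 10.9 and 10.3. The iWAT means of the inhibitor G0s2 were 542 for WT and 639 for LFABP-/- mice, those of iBAT 611 and 712, those of liver 237 and 299. Its values in liver were spread widely, at 130.6 to 383.5 in WT and 131.7 to 565.9 in LFABP-/- mice, where the 95% interval of its log2 fold change was -0.81 to 1.17. Plin1 averaged 1477 and 1487 in iWAT, with a log2 fold change of 0.01 (95% interval -0.39 to 0.41), and 524 and 559 in iBAT (0.10, -0.17 to 0.36).

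Replicate 4 of each genotype was low in iWAT for most of the lipases and droplet genes. Lipe was at 1171.2, 1330.5, 1063.4, 782.3 and 1420.0 in WT and at 1209.6, 1212.0, 861.7, 817.5 and 1220.9 in LFABP-/- libraries. Plin1 was at 1571.7, 1594.2, 1367.2, 1064.7 and 1786.1 in WT and at 1690.6, 1492.9, 1300.2, 1119.8 and 1831.3 in LFABP-/- libraries. In both genotypes, replicate 4 was the lowest for these genes and replicate 5 the highest. Mgll was at 1187.2, 988.5, 858.9, 543.1 and 928.2 in WT and at 1287.0, 841.6, 803.0, 779.8 and 1203.5 in LFABP-/- libraries. G0s2 was at 702.3, 523.3, 648.4, 256.7 and 581.3 in WT and at 695.2, 543.2, 836.4, 413.2 and 706.9 in LFABP-/- libraries. WT replicate 4 was the lowest WT library for Pnpla2, Lipe, Mgll, Plin1, Abhd5 and G0s2, and LFABP-/- replicate 4 the lowest of its group for all of these but Abhd5, where replicate 3 was lower (45.3 against 47.7). These replicates 4 had lymphocyte markers at 7.28 and 6.70 and the lowest adipocyte markers of their groups, 9.67 and 9.83, against 10.30 to 10.56 and 9.98 to 10.58 in the others. The part of this in the values was not tested beyond the covariates. In iBAT, Mgll was at 319.7, 372.5, 288.9, 295.5 and 320.4 in WT and at 448.7, 374.5, 379.0, 412.2 and 236.0 in LFABP-/- libraries, so 4 LFABP-/- libraries were above every WT library and 1 was below.

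**Figure D3:**
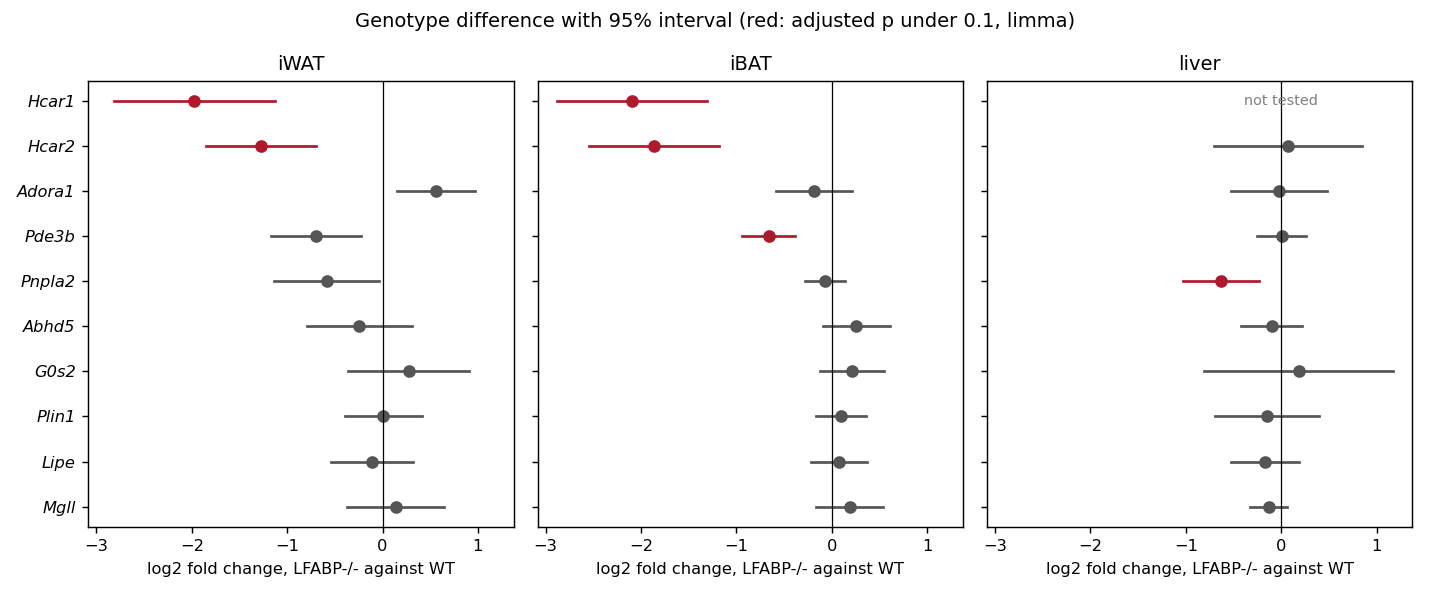
Log2 fold change of LFABP-/- against WT for the 10 genes in each tissue, with 95% intervals (limma, 5 libraries per genotype). Red marks an adjusted p under 0.1 over all genes tested. Hcar1 in liver was below the filter and was not tested. Hcar1 and Hcar2 are red in iWAT, these and Pde3b in iBAT, and Pnpla2 in liver.

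Ratios within a library do not depend on how libraries are scaled. They were not tested. The ratio of G0s2 to Pnpla2, inhibitor to enzyme, had a median of 0.124 in WT iWAT (0.118 to 0.262) and 0.252 in LFABP-/- iWAT (0.213 to 0.485). It was 0.364 and 0.381 in iBAT and 2.11 and 2.56 in liver, so G0s2 exceeded Pnpla2 in 9 of 10 liver libraries and in no fat library. The ratio of Abhd5 to Pnpla2 was 0.0201 to 0.0290 in WT and 0.0263 to 0.0356 in LFABP-/- iWAT. Lipe to Pnpla2 was 0.302 to 0.437 in WT and 0.432 to 0.507 in LFABP-/- iWAT, overlapping through WT replicate 1 and the library labelled LFABP-/- replicate 1. The ratio of Pde3b to Lipe was 0.149 to 0.219 in WT and 0.0902 to 0.118 in LFABP-/- iBAT, without overlap. The ratio of Hcar1 to Hcar2 in iWAT was 2.07 to 2.88 in WT and 1.17 to 2.15 in LFABP-/- libraries, so the ranges overlapped through WT replicate 1 and the library labelled LFABP-/- replicate 1.

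**Figure D4:**
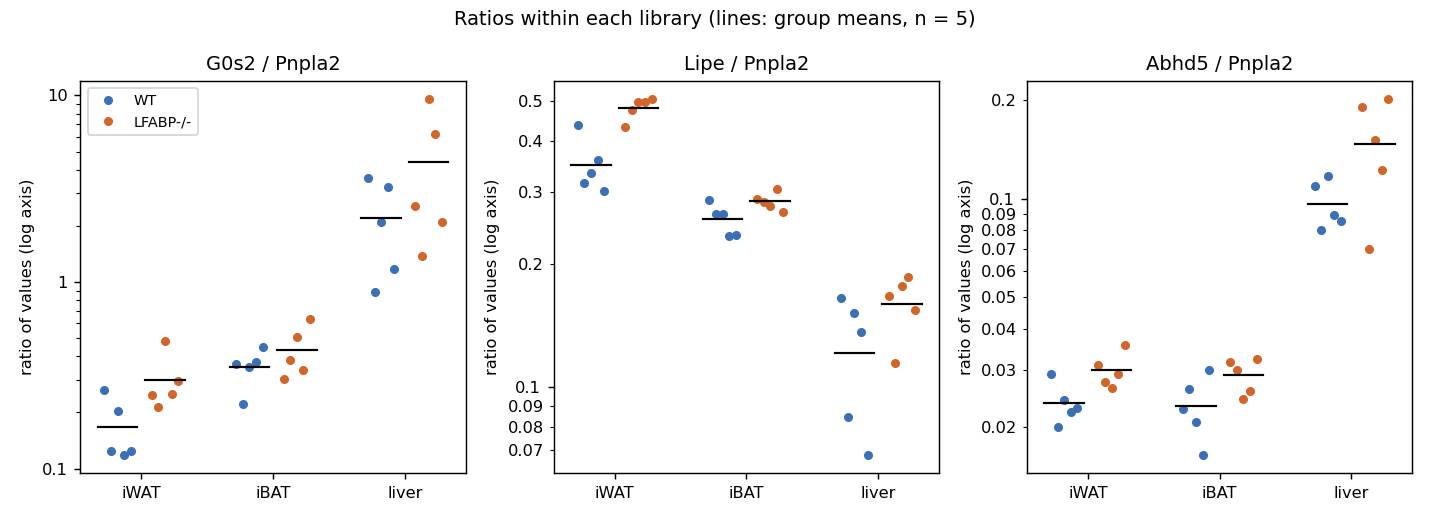
Ratios of G0s2, Lipe and Abhd5 to Pnpla2 within each library (log axes), by tissue and genotype. Points are libraries and lines are means of 5. G0s2 to Pnpla2 lies below 1 in every fat library and reaches 9.59 in LFABP-/- liver.

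The size of the genotype effect was compared between tissues in 1 fit of all libraries. Between iWAT and iBAT, no member was called (limma), where 11.3% of all genes were and 3290 genes had an unadjusted p under 0.05. The differences of the log2 fold changes were 0.12 for Hcar1 (95% interval -0.85 to 1.10), 0.59 for Hcar2 (-0.38 to 1.57) and -0.03 for Pde3b (-0.51 to 0.45), while Adora1 (0.75, adjusted p = 0.144) had an unadjusted p of 0.0203. Between iBAT and liver, Hcar1 (-2.10, adjusted p = 0.00502), Hcar2 (-1.94, 0.00862) and Pde3b (-0.67, 0.0654) were called, 3 of 10, where 4.89% of genes were called in that direction. Between iWAT and liver, Hcar1 alone was called (-1.98, adjusted p = 0.0275), where 1.04% of genes were in that direction. Hcar1 was at 0 to 0.3 in liver and entered this fit only through its values in fat, so no genotype effect could appear in liver, and both of its differences from liver repeat the effects in fat and do not compare tissues. Liver values of Hcar2 were at most 3.9. The call of Pde3b was lost under median-ratio scaling (adjusted p = 0.112) and without any of 6 single libraries.

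Library names carry the prefix G30 or G32, whose meaning the labels do not give. In the iBAT and liver names, 3 WT and 2 LFABP-/- mice had G30 and 2 and 3 had G32. For iWAT, WT replicates 4 and 5 were instead named with G30, and LFABP-/- replicate 2 with G3, so by their own names all 5 WT iWAT libraries are G30 and G32 holds only LFABP-/- libraries, which leaves no comparison within G32. The values here go by the prefix in the iBAT and liver names of the same mouse. Within G30 the log2 difference of Hcar1 was -1.49 in iWAT and -1.93 in iBAT, and within G32 -2.40 and -2.22. For Hcar2 it was -0.89 and -1.93 within G30 and -1.59 and -1.76 within G32. Pde3b in iBAT differed by -0.47 and -0.76, and Pnpla2 in liver by -0.41 and -0.76, within G30 and G32. All of these were negative within both prefixes as assigned from iBAT and liver names, with too few libraries for a test.

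Other genes of the pathways were described from 7 lists. In iWAT, 2 of 108 tested list genes were called, where 1.45% of all genes were, so the share was near that of all genes. Gnao1, a Gi-family alpha subunit, rose from 5.02 to 9.16 (log2 fold change 0.83 ± 0.19, adjusted p = 0.0895), the 1 gene of 11 other Gi-coupled receptors and subunits. Slc27a1, a fatty acid transport protein, fell from 531 to 216 (-1.26 ± 0.24, adjusted p = 0.052), the 1 gene of 13 for glycerol and fatty acid handling. None was called of 19 adrenergic and protein kinase A genes, 14 other phosphodiesterases, 13 insulin to AKT genes, 17 for supply of the receptors' ligands or 21 other hydrolases and droplet proteins. The median log2 fold changes of the 7 lists lay between -0.23 and 0.13, and that of all genes was 0.05.

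In iBAT, calls among the pathway genes went in both directions, where 47.8% of all genes were called, 25.5% lower, so counts of about this share do not set a list apart. Of 18 adrenergic and protein kinase A genes, 5 rose and 4 fell. Prkaca, the catalytic subunit of protein kinase A, rose from 178 to 253 (log2 fold change 0.50), and Adcy9 and Adcy6, which make cAMP, fell from 11.6 to 4.62 (-1.23) and from 78.3 to 55.5 (-0.49). Of 11 other phosphodiesterases, 5 fell and 1 rose, with a list median of -0.35 against -0.03 for all genes. Pde4a, which degrades cAMP, fell from 20.3 to 10.8 (-0.88) and Pde8a from 26.5 to 19.9 (-0.41).

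Of 8 other Gi-coupled receptors and subunits in iBAT, 4 rose and 1 fell. Ptger3, a prostaglandin E receptor that restrains lipolysis, rose from 14.4 to 24.7 (0.76) and Ffar4, a receptor for long-chain fatty acids, fell from 43.6 to 23.7 (-0.87). For supply of the receptors' ligands, 4 of 15 rose and 4 fell. Slc16a1, a lactate and ketone transporter, rose from 85.1 to 192 (1.18), and its partner Bsg fell from 596 to 390 (-0.60).

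Of 20 other hydrolases and droplet proteins in iBAT, 6 rose and 2 fell. Plin2, which coats droplets in many cell types, rose from 378 to 1036 (1.47), and Plin4, an adipocyte droplet protein, fell from 187 to 135 (-0.45). Of 11 genes for glycerol and fatty acid handling, 6 rose and 1 fell. Dgat1, which makes triglyceride, rose from 124 to 244 (0.97), and Slc27a1 fell from 88.2 to 48.3 (-0.86), as in iWAT. Of 13 insulin to AKT genes, 2 rose and 4 fell, with Pdpk1 at 9.62 and 16.4 (0.72) and Pik3r2 at 12.3 and 8.10 (-0.58).

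In liver, where 16.9% of all genes were called, 13.9% lower, 5 of 13 insulin to AKT genes fell and 1 rose, among them Insr, the insulin receptor, from 24.4 to 17.6 (-0.46). Of 16 adrenergic and protein kinase A genes, 2 rose and 2 fell. Sucnr1, the succinate receptor, rose from 23.9 to 44.4 (0.91) as 1 of 5 Gi-coupled genes, and Lipa, the lysosomal acid lipase, fell from 74.7 to 53.7 (-0.47) as 1 of 20 hydrolases and droplet proteins, of which 1 other rose. For these calls the test was limma with an adjusted p under 0.1.

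For each member, the 3 genes most like it over the 30 libraries were taken by Pearson's r of the log2 values among 9984 genes. The libraries share 3 tissues and 10 mice, so these r mostly follow tissue and are given as a description. Pde3b, itself a member, was the gene next to closest to Hcar1 (r = 0.978, Spearman's rho 0.964), after Irak1bp1 (0.978). Slc27a1 was closest to Pde3b (0.986), Adrb3, the adipocyte adrenergic receptor, to Pnpla2 (0.992), and Fabp4, the adipocyte fatty acid-binding protein, to Plin1 (0.999). Ppm1m (0.996) and Plin1 (0.995) were closest to Lipe, Slc18b1 to Mgll (0.992), Sccpdh to Abhd5 (0.979), Flot2 to Adora1 (0.974) and Ngly1 to Hcar2 (0.960). G0s2 had no gene above 0.838 (Zfp982).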

How the data were processed

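The authors selected poly(A) RNA, prepared libraries with a kit that does not mark strand, sequenced single-end and mapped the reads with CLC Genomics Workbench to GRCm38 with Ensembl gene models. They deposited 1 table of normalized values for 41549 genes. Its headers say RPKM, but the deposited values are on the TPM scale, as they sum to between 999967.3 and 999996.4 in each library. They are rounded to 1 decimal. Depth is unknown, so no counting interval can be given and precision rests on the 5 mice per group. No column was left out. No library of a group was a copy of another.

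Within a tissue, genes whose mean was 1 or more were fitted with limma 3.58.1 (R 4.3.3) after adding 0.5 and taking log2 (eBayes with an intensity trend, two-sided). P-values were adjusted by Benjamini and Hochberg over all genes tested and called under 0.1. Fold changes on this scale understate those of low genes. For the members, a two-sided exact permutation test on mean log2 values was added (252 assignments, 30 comparisons). Tissues, and genotype effects between tissues, were compared in 1 fit of 30 libraries, mouse being a random block (consensus correlation -0.01). The same mice gave the 3 tissues, as mouse numbers in the labels show. The steps were tested on simulated data.

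The members and lists were chosen with earlier results of these data known. Of 201 list symbols, 200 were found. The text names all members, Fabp1, genes from the up to 4 called ones with the smallest p per pathway list and tissue, and the 3 genes most like each member among those with a mean of at least 5. Not every such gene is given, and that choice, like the genes whose exons overlap a member, was made after the values were seen. Alternatives were the pseudocount (0.1, 1), the filter (none, or 20), the scaling (median ratio, or without mitochondrially encoded genes), library weights, eBayes without the trend, a prefix term (prefixes as in the iBAT and liver names), a replicate block, 1 fit of all libraries, marker covariates and each library left out. Leaving out the 5 iWAT libraries high in lymphocyte markers and a hepatocyte covariate in iBAT were chosen after seeing the data. Exons came from GENCODE M21 and promoters from RefSeq. Python 3.11.15 (pandas 2.3.3, SciPy 1.17.1, NumPy 2.4.6, matplotlib 3.10.9) was used for tables and plots.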

Additional observations from a re-analysis of the deposited data

Results flagged for a closer look

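Among 60 groups of 5 libraries, 6 held a library far from the rest by Dixon's criterion, where chance alone gives about 1 in 20. In liver, Hcar2 was at 3.9 in WT replicate 5, with 1.4 next to it, and at 2.3 in LFABP-/- replicate 5, again with 1.4 next to it. In iWAT, Adora1 was at 91.7 in WT replicate 1, against 58.0 next to it, and at 131.8 in LFABP-/- replicate 5, against 90.7. Abhd5 was at 8.5 in liver of WT replicate 4, with 11.2 next to it, and G0s2 at 453.5 in iBAT of WT replicate 2, with 630.1 next to it.

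The genotype effect differed between tissues by a test of the difference (limma) for 4 results. Between iBAT and liver the log2 fold changes differed by -2.10 for Hcar1, -1.94 for Hcar2 and -0.67 for Pde3b, and between iWAT and liver by -1.98 for Hcar1. Hcar1 was at 0 to 0.3 in liver, so its values repeat the effects in fat and do not compare tissues.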

How the results depend on the processing

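In iWAT, 2 members and 213 of all genes were called in the fit reported. In brackets are all genes called in each alternative. The number of members was 0 with median-ratio scaling (89), with a skeletal muscle covariate (57) and without the 5 libraries high in lymphocyte markers (6). It was 1 with a prefix term (179), 4 in 1 fit of all libraries (1022) and with lymphocyte (1227) or adipocyte (835) covariates, and 8 with library weights (9158). In iBAT, 3 members (5556 of all genes) became 1 with a filter at 20 (1391), which leaves 8 members to test. They became 0 with adipocyte (20) and 1 with hepatocyte markers (694) as a covariate. In liver, 1 member (1969 of all genes) became 0 with lymphocyte (1841) or adipocyte (1327) markers as a covariate. Between iWAT and iBAT, 9 called members, all higher, became 2 higher and 4 lower in WT and 2 higher and 3 lower (5 in all) in LFABP-/- mice with median-ratio scaling, and 5 higher and 1 lower, and 6 higher and 3 lower, without mitochondrially encoded genes. All genes called in WT went from 14393 to 10858 and 12790 under these settings, and in LFABP-/- mice from 14549 to 11593 and 13507. Members whose genotype effect differed between iWAT and iBAT numbered 1 without mitochondrially encoded genes, and between iWAT and liver 2 with the replicate block as a fixed term. With 1 library left out, the counts ran from 0 to 3 in iWAT, from 0 to 1 in liver, from 0 to 2 for differences between iWAT and iBAT and from 1 to 3 for those between iWAT and liver.

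Replicate numbers join different mice across genotypes, and the labels give no shared litter or day. In iWAT, the deviations of libraries with the same number correlated at 0.62 to 0.74 for 4 of 5 numbers and at -0.37 for replicate 2, and 2 of the 5 numbers correlated best with their own. The range was -0.62 to 0.57 in iBAT and -0.04 to 0.19 in liver. Since not every pair correlated, the numbers were not taken to pair the libraries, though those of iWAT leave this less clear. With a replicate block, the iWAT calls held 2 members, at an adjusted p of 0.064 for Hcar1 and 0.0599 for Hcar2, and the other genotype calls of members stood.

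Some differences near 0 changed sign. None of these had been called in the fits reported. Plin1 in iWAT was called lower after the change with library weights (adjusted p = 0.0426, limma), where 9158 of all genes were called. In iWAT the sign changed for G0s2 (-0.023), Plin1 (-0.35) and Mgll (-0.21) with library weights, Plin1 with median-ratio scaling (-0.045), Plin1 (-0.12) and Mgll (-0.017) with the macrophage covariate and Lipe with the lymphocyte covariate (0.014). In iBAT it was so for Adora1 (0.66), Pnpla2 (0.063) and Abhd5 (-0.19) with the adipocyte covariate, Plin1 (-0.0054) and Lipe (-0.041) with the skeletal muscle covariate and Mgll with the hepatocyte covariate (-0.14). In liver it was so for Hcar2 with a prefix term (-0.060) and with skeletal muscle (-0.12) and adipocyte (-0.089) covariates. Adora1 turned with median-ratio scaling (0.094), without mitochondrially encoded genes (0.046), with library weights (0.11) and with lymphocyte (0.14) and macrophage (0.11) covariates. Pde3b turned with library weights (-0.044) and lymphocyte (-0.079), macrophage (-0.061) and adipocyte (-0.0315) covariates, Abhd5 with median-ratio scaling (0.017) and G0s2 with the adipocyte covariate (-0.062). With 1 library left out, the log2 fold change ran from -0.10 to 0.11 for Plin1 and -0.035 to 0.25 for Mgll in iWAT, from -0.0063 to 0.17 for Lipe in iBAT, and in liver from -0.17 to 0.40 for Hcar2, -0.13 to 0.12 for Adora1, -0.077 to 0.056 for Pde3b, -0.11 to 0.41 for G0s2 and -0.34 to 0.021 for Plin1.

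Between iWAT and iBAT of WT mice, median-ratio scaling gave -0.64 for Adora1, -0.067 for Pde3b, -0.53 for Pnpla2, -0.47 for Abhd5 and -0.094 for Lipe, and values without mitochondrially encoded genes gave -0.21 for Adora1, -0.10 for Pnpla2 and -0.048 for Abhd5. G0s2 ran from -0.35 to 0.012 with 1 library left out. In LFABP-/- mice, median-ratio scaling gave -0.0018 for Adora1, -0.20 for Pde3b, -1.15 for Pnpla2, -1.08 for Abhd5, -0.12 for Plin1, -0.39 for Lipe and -0.11 for Mgll, and without mitochondrially encoded genes Pnpla2 was at -0.56 and Abhd5 at -0.51. Between iWAT and liver, G0s2 was at -0.036 in WT and -0.12 in LFABP-/- mice with median-ratio scaling. The cause of these changes was not tested, apart from that of fewer members or libraries where named. Depth is unknown, and values below 1 rest on rounding to 1 decimal.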
